A study of Mus musculus with 16 samples.

Results

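The phosphodiesterase genes Pde10a and Pde7b were followed in the motor cortex of mice that had or had not regained movement after stroke. They are 2 of the 661 genes that the deposited tables list, and were chosen as enzymes that degrade cyclic AMP (cAMP). Pde10a is listed for both hemispheres and Pde7b for the contralesional one, which gives 3 comparisons. Messenger RNA was sequenced from primary motor cortex of both hemispheres of 8 C57Bl6 mice, which makes 16 libraries; ipsilesional means beside the lesion and contralesional across from it. All 8 animals had a stroke and their movement was scored with a rotating beam. The labels put animals 6, 23 and 28 in the recovered group, whose recovery was spontaneous, and animals 17, 19, 20, 21 and 29 in the non-recovered group. No animal without stroke, no drug and no altered gene is named for either group, and the sources used here do not give the time after stroke, the age, the sex or the way the stroke was made.

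Cyclic nucleotide phosphodiesterases are the enzymes that break the second messengers cAMP and cGMP down, and so set how long and how far the signal of a receptor spreads in a cell. Cyclic AMP is made by adenylyl cyclases, which receptors switch on or off through G proteins, and it acts mostly through protein kinase A and the transcription factor CREB. PDE10A hydrolyses both cAMP and cGMP and is known above all from the projection neurons of the striatum, where it limits the response to dopamine and adenosine receptors. PDE7B is specific for cAMP and is also found in the striatum and other parts of the brain.

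Pde10a (ENSMUSG00000023868.17) lies on the plus strand of mm10 chromosome 17, 8525372 to 8986648, a span of 461.3 kb. Pde7b (ENSMUSG00000019990.15) lies on the minus strand of chromosome 10, 20398004 to 20725078, a span of 327.1 kb. Annotated exons cover 12849 nt of Pde10a and 12444 nt of Pde7b. GENCODE gives Pde10a 8 coding transcripts, each with a start of its own, and Pde7b 4, and the tables give 1 value per gene. No annotated gene overlaps an exon of either. Their transcripts share no stretch of 25 nt with each other or with those of any of the other 22 phosphodiesterase genes compared, so reads of the members could be told apart from those of their relatives.

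The sequences before the starts are shown because both genes had lower values in recovered mice and belong to a pathway that ends on CREB, which binds the cAMP response element. Each is the stretch of 250 bases before a RefSeq transcript start (GRCm38.p6), given 5′ to 3′ on the strand of the gene. Capitals mark the only motif match, a GC box.
Pde10a, upstream start, chr17:8801495-8801744, plus strand: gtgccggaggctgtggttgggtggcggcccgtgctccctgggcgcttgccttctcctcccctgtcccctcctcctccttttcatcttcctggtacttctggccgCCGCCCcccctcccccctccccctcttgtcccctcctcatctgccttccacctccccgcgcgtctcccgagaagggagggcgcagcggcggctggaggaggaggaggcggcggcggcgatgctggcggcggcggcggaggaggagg
Pde10a, downstream start, chr17:8849735-8849984, plus strand: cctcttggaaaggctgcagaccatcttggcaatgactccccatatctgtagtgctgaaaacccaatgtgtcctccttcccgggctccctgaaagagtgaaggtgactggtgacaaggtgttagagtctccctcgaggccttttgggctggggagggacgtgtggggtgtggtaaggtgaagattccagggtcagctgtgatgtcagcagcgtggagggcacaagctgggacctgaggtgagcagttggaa
Pde7b, chr10:20548329-20548578, minus strand: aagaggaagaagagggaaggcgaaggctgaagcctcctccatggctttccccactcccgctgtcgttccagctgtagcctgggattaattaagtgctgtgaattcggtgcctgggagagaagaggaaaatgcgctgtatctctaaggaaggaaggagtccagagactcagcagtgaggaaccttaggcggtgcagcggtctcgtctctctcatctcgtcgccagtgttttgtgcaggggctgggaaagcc
The motifs searched on both strands were the full cAMP response element TGACGTCA, the shorter TGACG, which the full element contains, the GC box GGGCGG and the TATA box TATAAA. The upstream Pde10a window holds 1 GC box, and the other windows hold none of the 4 motifs. Of all 32851 RefSeq windows of the same length, 1.55% hold the full element, 17.8% the shorter form, 32.7% a GC box and 12.4% a TATA box. The upstream Pde10a window has a G and C content of 72.8%, more than 94.0% of all windows, against 56.0% in the downstream one and 55.2% before Pde7b. All of these windows lie inside the gene spans given above. GENCODE has further starts for both genes, and the sequences before those were not searched. These letters describe the windows alone, and no binding was measured.

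The deposited values are log2 CPM, that is, the logarithm of counts per 1000000 reads of a library, and each table holds only a part of the annotated genes, chosen by a rule that the sources used here do not state. The ipsilesional table lists 263 genes and the contralesional one 417, and 19 genes stand in both. Library totals recovered from the values ranged from 19.1 to 26.3 M reads (M, 1000000) in ipsilesional and from 17.97 to 27.9 M reads in contralesional cortex. Of the cortical excitatory neuron markers checked, 1 of 22 was listed in the ipsilesional table (Calb1, at 89.85 to 111.6 CPM in recovered and 110.6 to 137.04 CPM in non-recovered animals) and 0 of 22 in the contralesional one, so the labelled tissue could not be checked by them. Ipsilesional animal 6 stood apart: 3 listed microglia and macrophage genes (Itgam, Gpnmb and C3, of 12 in the list) summed to 147 CPM there and to between 7.85 and 20.6 CPM in the 7 others. The description codes of animals 6 and 23 are swapped between the hemispheres relative to the titles, and the labels do not say on which side the error lies. Both animals are recovered, so no group comparison depends on the swap, and the titles are followed here.

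The first question was whether Pde10a differed with recovery in the hemisphere opposite the lesion. The recovered animals 6, 23 and 28 had 5.81, 5.42 and 5.89 log2 CPM of Pde10a. The non-recovered animals 17, 19, 20, 21 and 29 had 6.11, 6.32, 6.01, 6.60 and 6.02 log2 CPM. All 3 recovered libraries lay below all 5 non-recovered ones, with a gap of 0.12 between the highest recovered and the lowest non-recovered value. Groups that did not overlap were found for 43.2% of the genes in this table, and with the recovered animals lower for 25.4%, so the separation does not set Pde10a apart from them. In linear units the means were 52.6 ± 8.69 CPM (SD, n = 3) in recovered and 74.9 ± 13.7 CPM (SD, n = 5) in non-recovered animals.

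The contralesional log2 fold change of Pde10a, recovered minus non-recovered, was -0.50 ± 0.16 (SE, limma), with a 95% interval from -0.86 to -0.15. This amounts to a difference of -29.5% (interval -44.9% to -9.89%). The limma p was 0.0104 unadjusted and 0.0520 after Benjamini-Hochberg adjustment over the 417 listed genes, which misses the threshold of 0.05. Of the listed genes, 7.91% passed that adjusted threshold and 73.4% had an unadjusted p under 0.05, so an unadjusted p under 0.05 is the rule in the table. Ordered by limma p from the smallest, Pde10a stood at place 81 of 417. An exact permutation test over the animals gave p = 0.0357 (2-sided, 56 splits, smallest possible p = 0.0179), and 0.0734 after adjustment over the table. The listed genes may have been chosen on these same libraries, so these p-values cannot be taken as independent of that choice.

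Between 1064 and 2004 reads of Pde10a were counted per contralesional library. Counting alone then gives an SD of 0.03 to 0.04 on the log2 scale, against 0.25 between animals in each group. Counting error was thus small beside the spread between animals. Contralesional library totals averaged 21.86 ± 3.81 M reads (SD) in recovered and 25.49 ± 2.98 M reads (SD) in non-recovered animals. The permutation p for this difference in totals was 0.214. The part of depth in the Pde10a result was not tested. Animal 21 had the highest Pde10a level, and without it the log2 fold change was -0.41 ± 0.13. Animal 23 had the lowest, and without it the difference was -0.36 ± 0.16 (limma adjusted p = 0.131).

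Pde7b was compared in the same contralesional libraries. The recovered animals 6, 23 and 28 had 5.71, 5.35 and 5.31 log2 CPM of Pde7b. Among the non-recovered animals 17, 19, 20, 21 and 29 the values were 6.07, 5.71, 5.76, 5.53 and 5.97 log2 CPM. The groups overlapped: animals 23 and 28 lay below every non-recovered animal, but recovered animal 6 lay above non-recovered animals 19 and 21. Mean levels were 44.2 ± 7.07 CPM (SD, n = 3) and 56.5 ± 8.47 CPM (SD, n = 5), from 711 to 1878 reads per library.

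The log2 fold change of Pde7b was -0.35 ± 0.14 (SE, limma), with a 95% interval from -0.67 to -0.04, or a difference of -21.7%. It did not pass the adjusted threshold (limma p = 0.0324, adjusted p = 0.0590), and the exact permutation test gave p = 0.107 (2-sided). By size of the fold change Pde7b stood at place 89 and Pde10a at place 37 of 417, counted from the most negative. The Pde7b difference was -0.48 ± 0.14 without animal 6 and -0.28 ± 0.16 without animal 28.

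In the ipsilesional cortex Pde10a had 5.31, 5.48 and 5.74 log2 CPM in recovered animals 6, 23 and 28. The non-recovered animals 17, 19, 20, 21 and 29 had 5.64, 5.78, 5.98, 6.07 and 5.69 log2 CPM. Here the groups overlapped, since recovered animal 28 lay above non-recovered animals 17 and 29. The means were 45.9 ± 7.08 CPM (SD, n = 3) and 57.2 ± 7.44 CPM (SD, n = 5), from 938 to 1642 reads.

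Beside the lesion the log2 fold change of Pde10a was -0.32 ± 0.13 (SE, limma; 95% interval -0.62 to -0.01), a difference of -19.8%. The limma p of 0.0420 became 0.0662 after adjustment over the 263 listed genes, of which 1.14% passed and 74.5% had an unadjusted p under 0.05. The exact permutation p was 0.107 (2-sided). The lowest value belonged to animal 6, the library with the high microglia and macrophage sum. Without that animal the difference was -0.22 ± 0.14 (limma adjusted p = 0.192), and the part of those genes in the result was not tested.

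**Figure D1:**
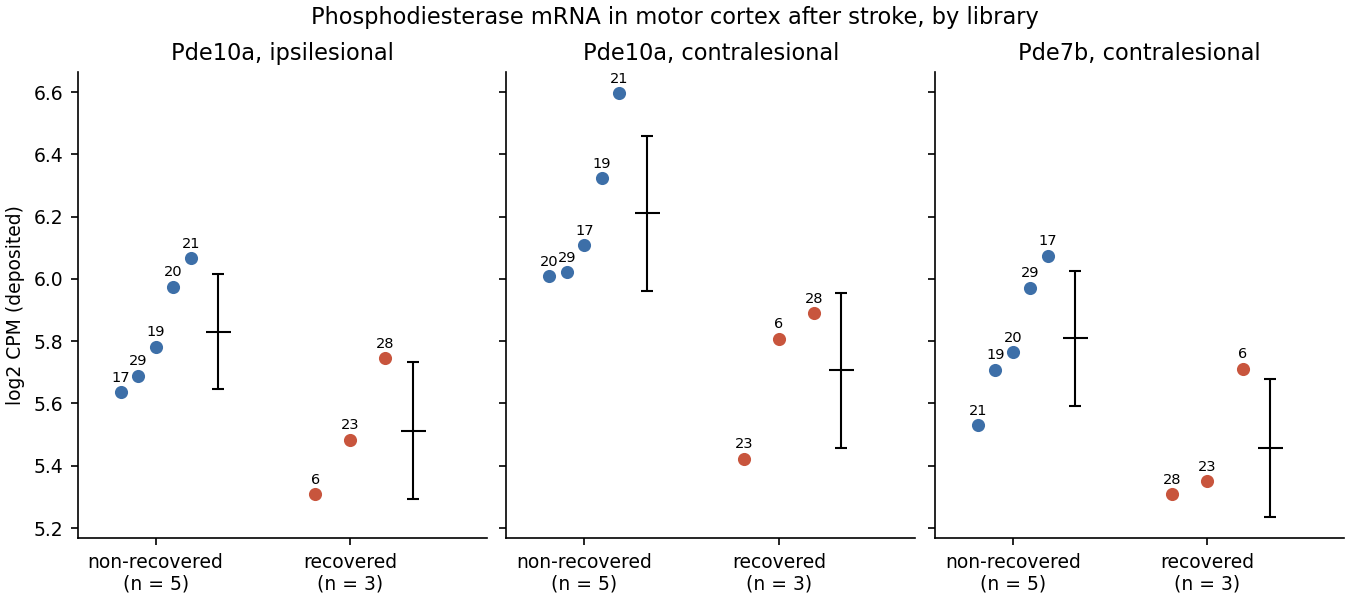
Deposited log2 CPM (vertical axis) of Pde10a in ipsilesional and of Pde10a and Pde7b in contralesional cortex, by group; each point is the library of the animal whose number it bears, and the bar is the mean ± SD (n = 5 non-recovered, n = 3 recovered). Only the contralesional Pde10a panel shows groups that do not overlap, and the order of the animals differs between the panels.

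The hemispheres were compared through the difference of the Pde10a fold changes, and not through levels, since the tables were normalized separately. The main fit took the libraries as independent, although the same animals gave both sides. The fit with the animal as replicate block is given in the closing section. In the main fit the ipsilesional minus the contralesional log2 fold change was 0.19 ± 0.22 (SE, limma over the 19 genes in both tables), with a 95% interval from -0.29 to 0.67. This interval includes differences as large as the fold changes themselves, so neither a like nor an unlike size on both sides was shown (adjusted p = 0.931; 5.26% of the 19 genes passed). Between animals, the deviations of Pde10a from the group means on the 2 sides correlated with Pearson r = 0.45 (exact permutation p = 0.251, n = 8) and Spearman rho = 0.33 (exact permutation p = 0.428). Adjusted over the 2 relations computed, these p were 0.491 and 0.501. Animal 21 was the highest of the non-recovered group on both sides and animal 28 the highest of the recovered group on both. Without the 2 animals farthest from the median, r was -0.41 (exact permutation p = 0.403, n = 6), so by the titles the relation rests on those animals. With animals matched by description code, r was 0.68 (exact permutation p = 0.0714, n = 8) and 0.21 without the 2 farthest (exact permutation p = 0.717, n = 6).

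Although both phosphodiesterases had lower means in recovered mice, they did not order the animals alike. Over the 8 contralesional libraries Pde10a and Pde7b correlated with Pearson r = 0.29 (exact permutation p = 0.491, adjusted 0.491) and Spearman rho = 0.29 (exact permutation p = 0.501, adjusted 0.501). Without animals 21 and 23, the farthest from the Pde10a median, r was 0.34 (exact permutation p = 0.508, n = 6). Taken as deviations from the group means, r was -0.43 (exact permutation p = 0.279, n = 8). Animal 21 shows the pattern most plainly, with the highest Pde10a and the lowest Pde7b value of the non-recovered group, and without it this r was -0.02.

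The log2 difference between the members within a library, Pde10a minus Pde7b, is free of any scaling of the library. It was 0.10, 0.07 and 0.58 in recovered animals 6, 23 and 28. In non-recovered animals 17, 19, 20, 21 and 29 it was 0.03, 0.61, 0.24, 1.07 and 0.05. The groups overlapped throughout (0.25 ± 0.29, SD, n = 3, against 0.40 ± 0.44, SD, n = 5; exact permutation p = 0.643, 2-sided), so the balance between the members did not differ beyond the spread. Per kilobase of annotated exon, Pde10a was at 5.83 ± 1.06 CPM and Pde7b at 4.54 ± 0.68 CPM (SD, n = 5) in non-recovered animals. Pde10a was the higher of the pair per kilobase in 7 of 8 libraries, by a median ratio of 1.09. In animals 6, 17, 23 and 29 the pair lay close together, and animal 17 had the reverse order (5.36 CPM per kilobase of Pde10a and 5.41 of Pde7b).

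**Figure D2:**
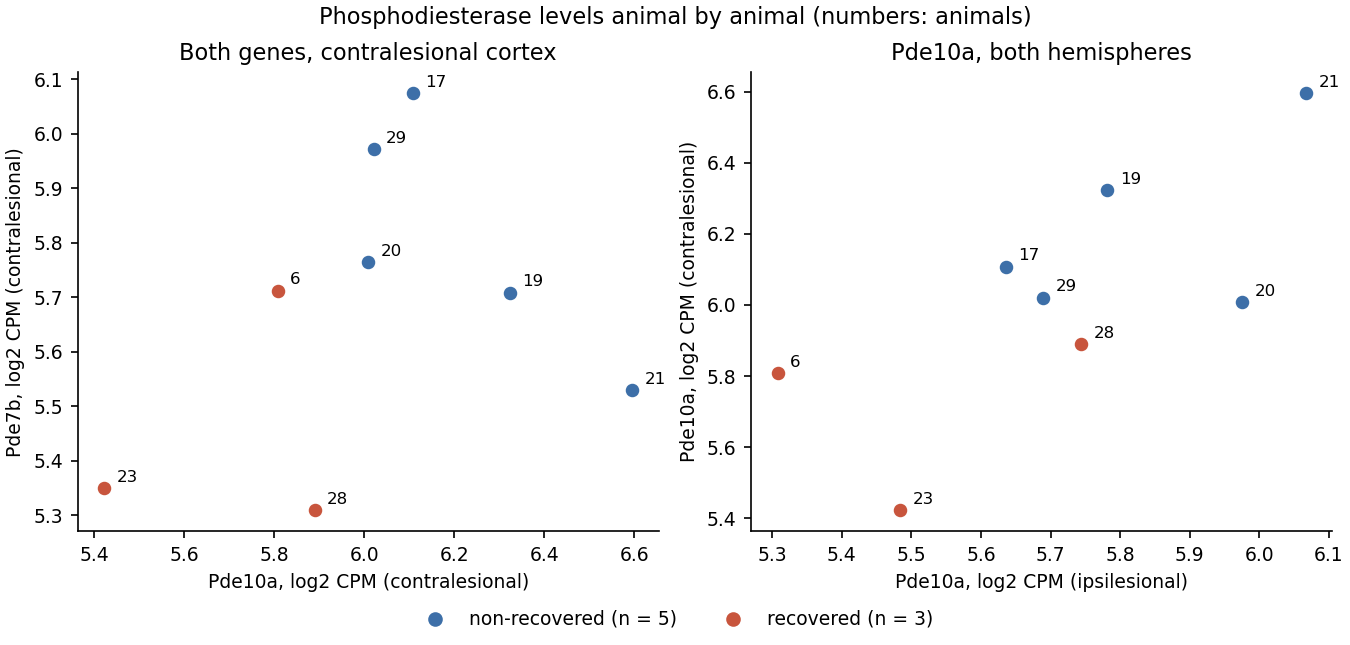
Left, Pde7b against Pde10a (log2 CPM) in the 8 contralesional libraries; right, contralesional against ipsilesional Pde10a (log2 CPM, tables normalized separately) in the 8 animals, numbered by the titles. The 2 non-recovered animals highest in Pde10a, 21 and 19, are the 2 lowest of their group in Pde7b (left), and animal 21 lies at the upper end on both axes of the right panel.

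Of the 24 phosphodiesterase genes in the list, 3 were in the contralesional and 2 in the ipsilesional table, all with lower means in recovered mice, as for 64.7% and 50.2% of all genes in those tables, and none past the adjusted threshold. The other contralesional one was Pde5a, whose enzyme is specific for cGMP. It had 4.24, 3.92 and 4.28 log2 CPM in recovered animals 6, 23 and 28 and from 4.20 to 4.50 in non-recovered ones, with only animal 23 below all of the latter. Its log2 fold change was -0.23 ± 0.10 (limma adjusted p = 0.0660), -0.12 without animal 23 or after the centring of libraries described below, and -0.04 without the trend on transcript length. The other ipsilesional one was Pde11a, whose enzyme acts on cAMP and cGMP. It had 1.60, 2.10 and 2.35 log2 CPM in recovered animals 6, 23 and 28, all below the 2.37 to 2.56 of the non-recovered ones, but the gap was only 0.01 and the reads 70 to 140 per library. Groups that did not overlap were found for 42.2% of the ipsilesional genes (21.3% with the recovered animals lower), and its log2 fold change was -0.44 ± 0.15 (limma adjusted p = 0.0601). Without animal 6 it was -0.23 ± 0.09. The median log2 fold change was -0.35 over the 3 contralesional members of the list and -0.19 over all genes of that table; it was -0.38 over the 2 ipsilesional ones and -0.13 over all.

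The enzymes that make the messengers were not among the listed genes: 0 of 21 cyclase genes stood in either table. Of 48 receptors and G protein subunits, 6 were listed in contralesional cortex, 5 lower and 1 higher in mean, and 2 passed the adjusted threshold. Of all contralesional genes listed, 64.7% were lower in mean and 7.91% passed, and nothing particular to the receptors is read from counts this small. The 2 that passed were Gpr6, a receptor that raises cAMP without a ligand, and the prostaglandin E2 receptor gene Ptger4. Their log2 fold changes, recovered minus non-recovered, were -0.71 ± 0.18 and -0.63 ± 0.16 (limma adjusted p = 0.0469 for each). Both had few reads, 13 to 39 and 13 to 40 per library, and the adjusted p stayed under 0.05 in 5 of 17 alternatives for Gpr6 and 6 of 17 for Ptger4, with negative values in all. Those not past the threshold included the dopamine D2 receptor gene Drd2 (-1.31 ± 0.43), the adenosine receptor gene Adora2a (-0.73 ± 0.32) and the dopamine D5 receptor gene Drd5 (0.41 ± 0.17). Reads per library were 9 to 60 for Drd2, 35 to 128 for Adora2a and 42 to 67 for Drd5. In ipsilesional cortex 4 were listed and none passed: the muscarinic receptor genes Chrm2 (0.26 ± 0.09) and Chrm4 (0.27 ± 0.14), Ptger4 (0.58 ± 0.25), and the G protein subunit gene Gng7 (-0.14 ± 0.05). Of these, Chrm4 was at 0.11 without animal 28 and Ptger4 at 0.34 without animal 6.

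Downstream of the messengers, 2 of 39 effectors and anchors were listed, both in contralesional cortex and below the threshold: Pkib, an inhibitor of protein kinase A (-0.25 ± 0.09, and -0.16 without animal 23), and Akap13, which anchors that kinase (-0.21 ± 0.07, but 0.08 once the trend on transcript length described below was removed). None of 18 kinase substrates and CREB factors was listed in either table. CREB-responsive genes were split and none passed. In contralesional cortex they numbered 5 of 31, with Npas4 (-1.06 ± 0.44), Btg2 (-0.53 ± 0.27) and the enkephalin gene Penk (-0.25 ± 0.13) lower in mean, and Scg2 (0.22 ± 0.08) and the somatostatin gene Sst (0.14 ± 0.07, but -0.01 without the length trend) higher. The Npas4 difference was -0.64 without animal 6 and -1.63 without animal 28. In ipsilesional cortex Npas4 (-0.97 ± 0.44) and Scg2 (0.17 ± 0.07) were listed.

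**Figure D3:**
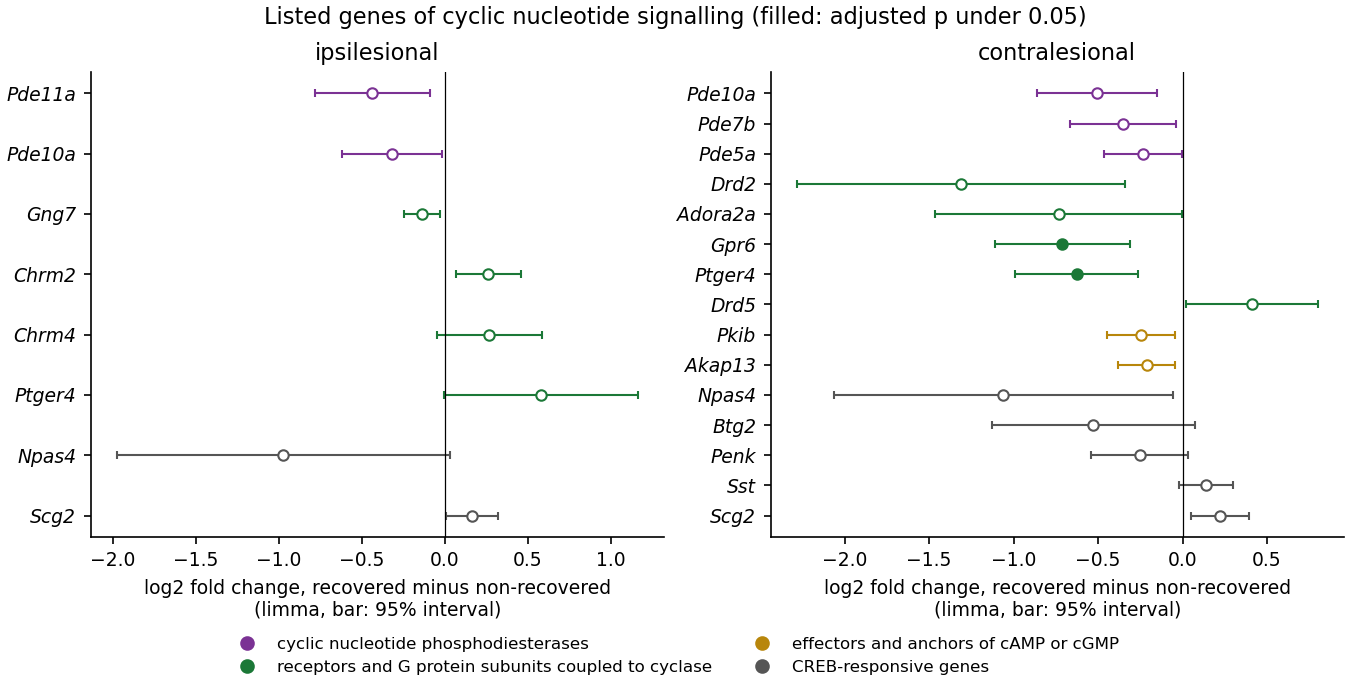
Log2 fold change, recovered minus non-recovered (horizontal axis, limma, bars are 95% intervals), of the listed genes of the cyclic nucleotide lists that are named in the text, in the ipsilesional (left) and contralesional table (right); colours mark the lists and filled points an adjusted p under 0.05. The phosphodiesterases lie below 0 in both panels, and only Gpr6 and Ptger4 are filled.

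Genes of striatal projection neurons, the cells with the most PDE10A, were also lower in the recovered contralesional libraries. Of 31 such genes, 9 were listed there, all with lower means in recovered mice; 5 had an unadjusted limma p under 0.05 and 1, Gpr6, passed the adjusted threshold, and none had 0 reads in any library. Over all listed contralesional genes, 64.7% had lower means in recovered mice, 73.4% an unadjusted p under 0.05 and 7.91% an adjusted one, and nothing particular to the 9 genes is read from these counts. Their summed level was 167.5 to 173.8 CPM in recovered and 189.6 to 232.2 CPM in non-recovered animals, and these groups did not overlap, as for 43.2% of single genes in the table. Within the groups, the deviations of Pde10a correlated positively with those of 8 of the 9 genes, with a median r of 0.58 against 0.12 over the other 416 listed genes. The highest were Rxrg (r = 0.80), Drd2 (r = 0.72) and Lrrc10b (r = 0.71). These 3 genes had few reads, 23 to 65, 9 to 60 and 37 to 116 per library. Pde7b went the other way, with a positive r for 2 of the 9 and a median of -0.36 against -0.01 over all others. These r describe 8 libraries that share their scaling; without animal 21 the medians were 0.37 for Pde10a and -0.07 for Pde7b. In bulk tissue, fewer cells of a type and less RNA per cell cannot be told apart, and the part of striatal RNA in the result was not tested. In ipsilesional cortex 3 of the 31 genes were listed, summing to 225.6 to 267.7 CPM in recovered and 216.7 to 252.1 CPM in non-recovered animals, which overlap. Scn4b, with the most reads of these (2681 to 4313 per library), was higher in mean in recovered mice (0.27 ± 0.12). Lrrc10b (-0.60 ± 0.23, 36 to 90 reads) and Gng7 (-0.14 ± 0.05, 1764 to 2523 reads) were lower. None of them passed the adjusted threshold.

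By the same measure, the genes most like Pde10a in contralesional cortex were Stk35 (r = 0.97), Cwf19l1 (r = 0.97), Lekr1 (r = 0.94), Aim2 (r = 0.89) and C2cd4c (r = 0.87). On the plain log2 CPM over the 8 libraries the first 4 of these had r between 0.95 and 0.98, but C2cd4c had -0.22, as its mean was higher in recovered mice. Aim2 had only 17 to 36 reads and Lekr1 45 to 78. In ipsilesional cortex the nearest were Itpka (r = 0.88), Lrrc10b (r = 0.84), Fdx1 (r = 0.83), Stk35 (r = 0.80) and Plxdc1 (r = 0.79), so the kinase gene Stk35 was among the nearest 5 on both sides. Plxdc1 had a plain r of -0.37, as its mean too was higher in recovered mice. For Pde7b the nearest contralesional genes were others: Mgp, matrix Gla protein (r = 0.94), Perp (r = 0.91), the stem cell factor gene Kitl (r = 0.89), the potassium channel gene Kcnh5 (r = 0.89) and fibronectin, Fn1 (r = 0.86). Mgp and Fn1 are on the meningeal fibroblast list, of which 3 of 12 were listed there, all with lower means in recovered mice. The other listed member of that list, Islr, had r = -0.02 with Pde7b. The 3 genes summed to 65.99 to 90.69 CPM in recovered against 88.06 to 104.4 CPM in non-recovered animals, which overlap. Their part in the Pde7b result was not tested.

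The members are long genes, and the contralesional groups also differed in a trend on exonic length. With 12849 and 12444 nt of annotated exon, Pde10a and Pde7b were longer than 91.6% and 90.6% of the listed contralesional genes that had a length, whose median was 5236 nt. Relative to each gene's mean, the slope of log2 CPM per doubling of exonic length was -0.02, -0.11 and -0.04 in the libraries of recovered animals 6, 23 and 28. The 5 non-recovered libraries had slopes from 0.02 to 0.04. With this trend removed from every library, an alternative chosen after seeing the data, the log2 fold change was -0.27 ± 0.14 for Pde10a (limma adjusted p = 0.149) and -0.13 ± 0.14 for Pde7b (adjusted p = 0.489). The ipsilesional difference of Pde10a was -0.33 ± 0.14 with the trend removed, close to its value with it. The contralesional differences of both members were thus smaller with the trend removed, and the cause of the trend was not tested. The slopes were fitted over the listed genes, members included, which may have been chosen on the group difference. Removing the trend can therefore take out part of that difference itself.

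Centring of libraries and quantile normalization also gave smaller contralesional differences. When each library was centred on the median deviation of the listed genes, the contralesional differences shifted by 0.11, to -0.39 ± 0.15 for Pde10a and -0.24 ± 0.14 for Pde7b. Since 64.7% of these genes had lower means in recovered mice, such centring can take out part of a group difference too. After quantile normalization they were -0.41 ± 0.17 and -0.19 ± 0.13 (limma adjusted p = 0.0996 and 0.248). Every setting run that can change the fold change kept the recovered mean below the non-recovered one for the members in each hemisphere.

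**Figure D4:**
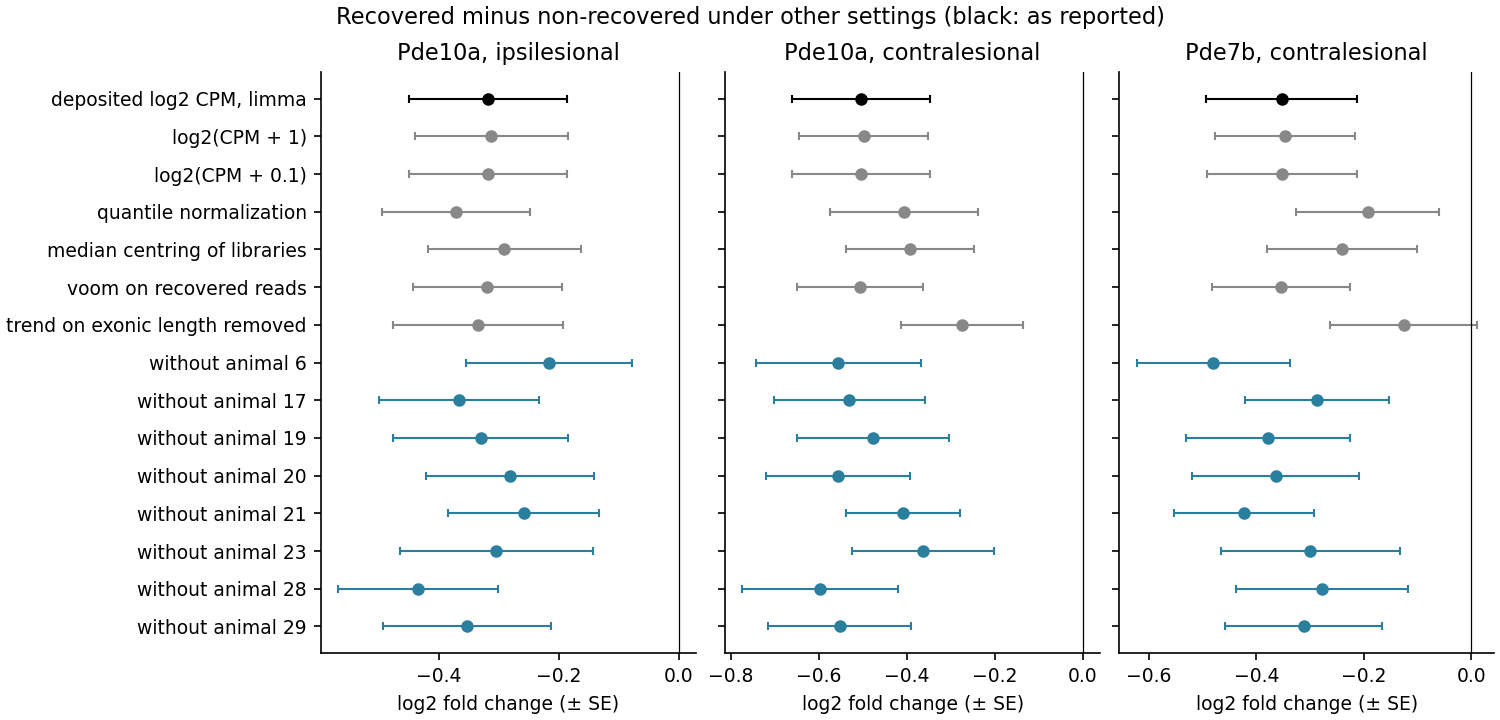
Log2 fold change, recovered minus non-recovered (horizontal axis, ± SE), of the members under the reported setting (black), other scales, normalizations and tests (grey) and with each animal left out (blue). All points lie below 0; removing the trend on exonic length moved both contralesional genes nearest to 0, and leaving out animal 6 did so for ipsilesional Pde10a.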

How the data were processed

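RNA (integrity number 7 to 9) was made into stranded poly(A) libraries, per the labels' protocols. STAR 2.5.1b, Trimmomatic 0.38, bcl2fastq, edgeR and build mm10 are named in the submitters' processing notes; which counter, annotation and selection of genes were used is not stated there. The authors deposited log2 CPM per library and hemisphere. Undoing a prior count of 2 (scaled to library size) turned 100% of the values into whole reads within 0.01. The recovered totals may already include a normalization factor.

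Groups came from the titles. limma 3.58.1 (R 4.3.3) was fitted to each whole table without a filter, with Benjamini-Hochberg adjustment over it; the code was tested on simulated data. Hemispheres were compared over the shared genes, with the animal as replicate block as an alternative, since the titles give the same animal numbers in both; same-numbered libraries correlated by 0.12 to 0.87 in their deviations over the 19 genes. Positions and exonic lengths are from GENCODE M21 (GRCm38), which matched 263 of 263 and 415 of 417 symbols. Promoters are from RefSeq (GRCm38.p6), which held 2 Pde10a starts and 1 Pde7b start.

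The members and lists were chosen with earlier results of these data known. Named genes are the members, listed genes of the 6 cyclic nucleotide lists, and the 5 genes per member and table with the highest r of deviations from group means.

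Of 9 marker lists, astrocyte and endothelial genes had no member in either table. Ipsilesional interneuron genes (2 of 12) summed to 440.5 to 503.2 CPM in recovered and 375.5 to 444.5 in non-recovered animals, the oligodendrocyte gene Bmp4 (1 of 11) to 2.75 to 3.16 and 2.93 to 4.83, and meningeal genes (4 of 12) to 352.9 to 643.5 and 419.2 to 874.8. Contralesional Sst (1 of 12) lay at 113.8 to 131.9 and 108.3 to 117.8 CPM, and beta-globin genes (2 of 5) at 6.27 to 12.4 and 3.01 to 6.85. Of the listed genes, 1 is counted in the lists and not reported here by itself.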

Additional observations from a re-analysis of the deposited data

How the results depend on the processing

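The 3 member differences stayed negative in all 18 alternatives each. The permutation test, the adjustment over all protein-coding genes, the filter on mean CPM and the mean-dependent prior variance cannot change the fold change. Their sign was therefore fixed in advance. Adjusted limma p crossed 0.05 for ipsilesional Pde10a with a mean-dependent prior variance (-0.32, adjusted p = 0.0488) and for contralesional Pde10a without animal 29 (-0.55, adjusted p = 0.0499); Pde7b stayed above it. Leaving out 1 animal gave -0.43 to -0.22 for ipsilesional Pde10a, -0.60 to -0.36 for contralesional Pde10a, -0.48 to -0.28 for Pde7b and 0.06 (without animal 23) to 0.34 (without animal 6) for the hemisphere difference. With the replicate block the hemisphere difference was 0.19 ± 0.17 by title number and 0.19 ± 0.15 by description code (adjusted p = 0.910 and 0.908), so pairing changed no call. The correlation of Pde10a with Pde7b turned to -0.43 within groups, and that between hemispheres to -0.41 without the 2 farthest animals by title number (0.21 by description code). With the length trend removed, 2 contralesional pathway genes changed sign, Akap13 (0.0822) and Sst (-0.0119).

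The number of listed genes past the threshold was unstable. It was 3 in ipsilesional cortex (0 higher, 3 lower) and 33 in contralesional cortex (8 higher, 25 lower). The ipsilesional count was 1 on log2(CPM + 1), 39 after quantile normalization (15 higher, 24 lower), 78 after centring (49 higher, 29 lower), 189 with a mean-dependent prior (93 higher, 96 lower), 0 with voom, 1 without the length trend, 0 adjusted over all 22028 protein-coding genes, and 0 to 18 without 1 animal. The contralesional count was 3 on log2(CPM + 1), 77 after quantile normalization (70 higher, 7 lower), 152 after centring (129 higher, 23 lower), 0 with a mean-dependent prior, 0 with voom, 99 without the length trend (71 higher, 28 lower), 0 over all protein-coding genes, and 0 to 74 without 1 animal. Adjusted over all protein-coding genes, the limma p of each member was 1. With the exact permutation test no gene of either table passed (smallest adjusted p = 0.0595 and 0.0621). At an unadjusted limma p under 0.05 the counts were 196 and 306. The cause of these shifts was not tested; the adjustment over all genes differs only in how many are counted as tested.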
